A study of Mus musculus with 12 samples.

Results

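Cellular iron uptake, storage and sensing were followed in whole bone marrow through 10 genes: the transferrin receptors Tfrc and Tfr2, the endosomal reductase Steap3, the iron transporter Slc11a2, the ferritin subunits Fth1 and Ftl1, the ferritin receptor Ncoa4, the iron sensors Ireb2 and Aco1, and Hfe, a partner of the transferrin receptors. They were taken by symbol from a table of 24415 genes, 1 entry each, and all 10 were among the 15283 genes that passed the expression filter. RNA came from female C57BL/6J mice, 8 weeks old, in 12 libraries. Replicates 1 to 4 were sham mice given an isotype control antibody, replicates 5 to 8 had a flame burn and the isotype antibody, and replicates 9 to 12 had a flame burn and an antibody against G-CSF, the main growth factor of neutrophils. The first dose of antibody preceded injury by 12 hours, further doses followed at injury and daily, and marrow of all groups was collected on day 7. At issue in the study was red cell production in the marrow, and whether G-CSF released by burn impairs it. Sham mice given anti-G-CSF were not analysed here, so an effect of the antibody without injury cannot be told apart from its effect after burn.

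Red cell precursors are the main iron consumers of the marrow. Transferrin brings iron to Tfrc at the cell surface, the complex is taken into endosomes, Steap3 reduces the iron and Slc11a2 moves it into the cytosol. Iron that is not used for heme is stored in ferritin, a shell of heavy (Fth1) and light (Ftl1) chains, and Ncoa4 carries ferritin to the lysosome to release it again. Ireb2 (IRP2) and Aco1 (IRP1) sense iron: when it is scarce they bind iron-responsive elements, hairpins with a CAGTGN loop. Binding in the 3' untranslated region of Tfrc protects the message, and binding in the 5' region of the ferritin messages blocks their translation, which a count of messages does not register.

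The hairpins are shown because the iron sensors act through them on the messages of Tfrc, Fth1 and Ftl1. They were searched in GENCODE M21 protein-coding transcripts (GRCm38, the assembly of mm10) as an unpaired C, 5 bases that pair with the 5 bases after the loop (G with T allowed), and a loop of CAGTG followed by A, C or T. The pattern was found in 3 of the 10 genes, and in 0.991% of 21899 protein-coding genes. Capitals mark the unpaired C and the loop, and each sequence is printed as DNA in the direction of the message.
Tfrc 3' UTR, chr16:32631219-32631247, plus strand: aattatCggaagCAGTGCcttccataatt
Tfrc 3' UTR, chr16:32631598-32631626, plus strand: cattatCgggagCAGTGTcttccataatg
Tfrc 3' UTR, chr16:32631663-32631691, plus strand: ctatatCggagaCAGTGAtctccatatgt
Tfrc 3' UTR, chr16:32631710-32631738, plus strand: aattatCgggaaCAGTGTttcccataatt
Fth1 5' UTR, chr19:9982732-9982760, plus strand: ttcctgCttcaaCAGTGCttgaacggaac
Ftl1 5' UTR, chr7:45459779-45459807, minus strand: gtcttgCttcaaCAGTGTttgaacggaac
Tfrc held 4 matches behind its coding sequence, and each ferritin gene held 1 ahead of it. The other 7 genes held no match to these letters, which says nothing about elements with a less regular stem.

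Each library had between 18780399 and 25708084 gene counts, and the 10 genes held 235 to 46570 counts per library. Levels are given as CPM, a count scaled to library size with TMM factors. Genes of red cell precursors (12 markers, among them Klf1 and Slc4a1) summed to 7378.9 to 8305.2 CPM in sham, 3610.1 to 5063.8 in burn and 7586.6 to 11004.5 in burn with anti-G-CSF. Neutrophil genes (14 markers) ran the other way, at 42796.8 to 54352.8, 79582.5 to 95717.4 and 26936.2 to 34939.0 CPM. Island macrophage genes (12 markers) summed to 1007.7 to 1230.8, 568.0 to 722.6 and 932.6 to 1209.5 CPM, and no gene of these 3 lists was at 0. B lineage genes (8 markers) were also lowest after burn, at 1306.4 to 1484.6, 475.1 to 792.9 and 965.2 to 1525.5 CPM. A course like that of the red cell genes was thus not particular to them. In bulk RNA, fewer cells of a type and less RNA per cell cannot be told apart. Genes typical of brain (18 markers) were also read, at 727.1 to 845.6 CPM in sham, 625.2 to 1225.4 in burn and 1069.0 to 2024.5 in burn with anti-G-CSF, highest in replicates 12 and 9. Heart genes (9 markers) summed to 332.2 to 413.6, 234.8 to 664.6 and 574.3 to 1186.2 CPM. Whether each library is a separate mouse is not in the labels, so p-values measure the spread between these libraries.

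Per kilobase of exon, ferritin stood far above the rest. In sham marrow Ftl1 was at 1989 ± 121 CPM per kilobase (SD, n = 4) and Fth1 at 868 ± 61.2. Next came Ncoa4, at 186 ± 6.57 CPM per kilobase, and Tfrc, within that spread. Ireb2 followed at 22.2 ± 0.509 and Slc11a2 at 12.2 ± 1.01 CPM per kilobase. Tfr2 at 9.29 ± 0.376, Aco1 at 8.70 ± 0.208 and Steap3 at 8.68 ± 0.994 CPM per kilobase did not differ beyond the spread of Steap3, and Hfe was lowest at 3.97 ± 0.494. After burn 5 genes stood at the low end. Aco1 was at 8.68 ± 1.04, Hfe at 8.12 ± 1.06 and Slc11a2 at 7.82 ± 1.15 CPM per kilobase, each within 1 SD of the others. Steap3 at 6.51 ± 0.851 and Tfr2 at 6.51 ± 1.67 CPM per kilobase followed. Exon lengths came from GENCODE and not from the annotation used for counting, so these levels are approximate.

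The first comparison set burned against sham mice, both on isotype, to see what followed injury. All 4 uptake genes fell, as did Fth1 and Ncoa4, while Hfe rose. Ftl1, Ireb2 and Aco1 did not pass the test. Thus 6 of 10 genes were lower and 1 was higher, beside 9.92% lower and 11.1% higher among all 15283 genes (21.0% changed in either direction). The median log2 fold change was -0.33 over the 10 genes and 0.00 over all genes.

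The second comparison set anti-G-CSF against isotype in burned mice, to see which levels moved when G-CSF was blocked. Tfrc, Tfr2, Steap3, Slc11a2, Ncoa4 and Fth1 rose, Tfrc and Slc11a2 by most, and none of the 10 genes fell. These 6 of 10 compare with 17.7% higher and 16.9% lower among all genes (34.6% in either direction), and the median log2 fold change was 0.32 over the 10 genes and 0.08 over all genes. This comparison shares its burn isotype libraries with the one above, so chance in those 4 libraries moves the pair of results in opposite directions. Without replicates 9 and 12 the count was 4, since Tfr2 (log2 fold change 0.46 ± 0.17, adjusted p = 0.0732) and Fth1 (0.25 ± 0.105, adjusted p = 0.11) no longer passed edgeR's quasi-likelihood test.

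The last comparison set burned mice on anti-G-CSF against sham mice, to see how far the levels stood from uninjured marrow. Hfe was higher and the other 9 genes did not pass the test, beside 7.09% higher and 3.91% lower among all genes (11% in either direction). The median log2 fold change was 0.03 over the 10 genes and 0.00 over all genes. The count over all genes rested on single libraries here: it was 1681 with all of them, 349 without replicate 9, 2271 without replicate 11 and 35 without replicates 9 and 12.

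**Figure D1:**
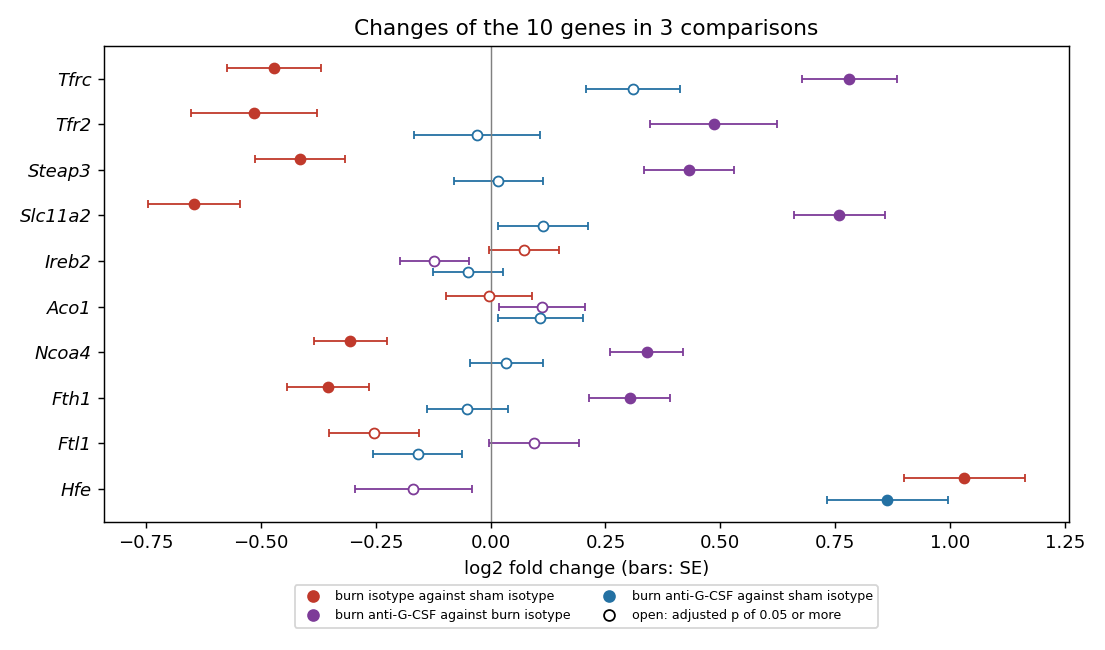
Log2 fold changes of the 10 genes (horizontal axis, bars SE) in the 3 comparisons, with open points where the adjusted p was 0.05 or more. The points of burn against sham lie left of 0 for the uptake genes, Fth1 and Ncoa4, those of the burn groups lie right of 0 for the same genes, and Hfe alone is right of 0 in both comparisons with sham.

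Tfrc encodes the receptor that brings transferrin-bound iron into red cell precursors (Entrez gene 22042, mm10 chromosome 16, 32608896 to 32632794, plus strand). Its level was 1053.5, 932.1, 940.1 and 929.4 CPM in sham replicates 1 to 4. It was 597.8, 749.7, 677.4 and 756.0 CPM in burn replicates 5 to 8, and 1389.4, 1266.3, 1077.9 and 1045.0 CPM in replicates 9 to 12 with anti-G-CSF. Every burn isotype library lay below every sham library and below every anti-G-CSF library. The log2 fold change was -0.47 ± 0.10 (SE) after burn (adjusted p = 0.00268) and 0.78 ± 0.10 with anti-G-CSF against burn isotype (adjusted p = 1.45e-05), by edgeR's quasi-likelihood test with Benjamini-Hochberg adjustment over all genes, as for all gene tests here. Against sham, the anti-G-CSF libraries overlapped the sham libraries and the log2 fold change was 0.31 ± 0.10 with adjusted p = 0.0587. That value passed with the DESeq2 Wald test (adjusted p = 0.0291), with scaling by total counts alone (adjusted p = 0.0264) and without replicate 11 (adjusted p = 0.0329), and its adjusted p went up to 0.768 with the brain genes as a covariate.

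Tfr2 encodes a second transferrin receptor, which associates with the erythropoietin receptor in red cell precursors and takes part in iron sensing in liver (Entrez gene 50765, chromosome 5, 137570805 to 137588081, plus strand). Its level was 31.67, 29.09, 31.79 and 30.71 CPM in sham. It was 14.58, 26.62, 19.80 and 25.39 CPM after burn, and 29.97, 28.57, 30.54 and 31.70 CPM after burn with anti-G-CSF. The burn isotype libraries were the lowest and the most spread, and none of them reached a library of another group. On the log2 scale Tfr2 changed by -0.51 ± 0.14 after burn (adjusted p = 0.0118), 0.49 ± 0.14 with anti-G-CSF (adjusted p = 0.012) and -0.03 ± 0.14 between anti-G-CSF and sham (adjusted p = 0.934).

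Steap3 encodes the reductase that turns ferric into ferrous iron in the endosome of red cell precursors (Entrez gene 68428, chromosome 1, 120226416 to 120265280, minus strand). Its level was 57.19, 47.93, 45.67 and 45.10 CPM in sham. It was 32.75, 43.04, 33.26 and 37.98 CPM after burn, and 46.55, 49.81, 50.35 and 51.52 CPM after burn with anti-G-CSF. The burn isotype libraries lay below all others, by a small margin for replicate 6. Steap3 had a log2 fold change of -0.42 ± 0.10 after burn (adjusted p = 0.0049) and 0.43 ± 0.10 with anti-G-CSF (adjusted p = 0.00233), and it was 0.02 ± 0.10 between anti-G-CSF and sham (adjusted p = 0.947).

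Slc11a2 (DMT1) encodes the transporter that carries ferrous iron out of the endosome (Entrez gene 18174, chromosome 15, 100387900 to 100423055, minus strand). Its level was 74.11, 65.19, 75.94 and 65.03 CPM in sham. It was 37.38, 46.94, 42.24 and 52.74 CPM after burn, and 85.06, 73.23, 69.02 and 76.19 CPM after burn with anti-G-CSF. The burn isotype libraries stood clear of both other groups, which overlapped. The log2 fold change was -0.65 ± 0.10 after burn (adjusted p = 0.00019), the largest fall of the 10 genes. With anti-G-CSF it was 0.76 ± 0.10 (adjusted p = 1.46e-05), and against sham 0.11 ± 0.10 (adjusted p = 0.53).

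**Figure D2:**
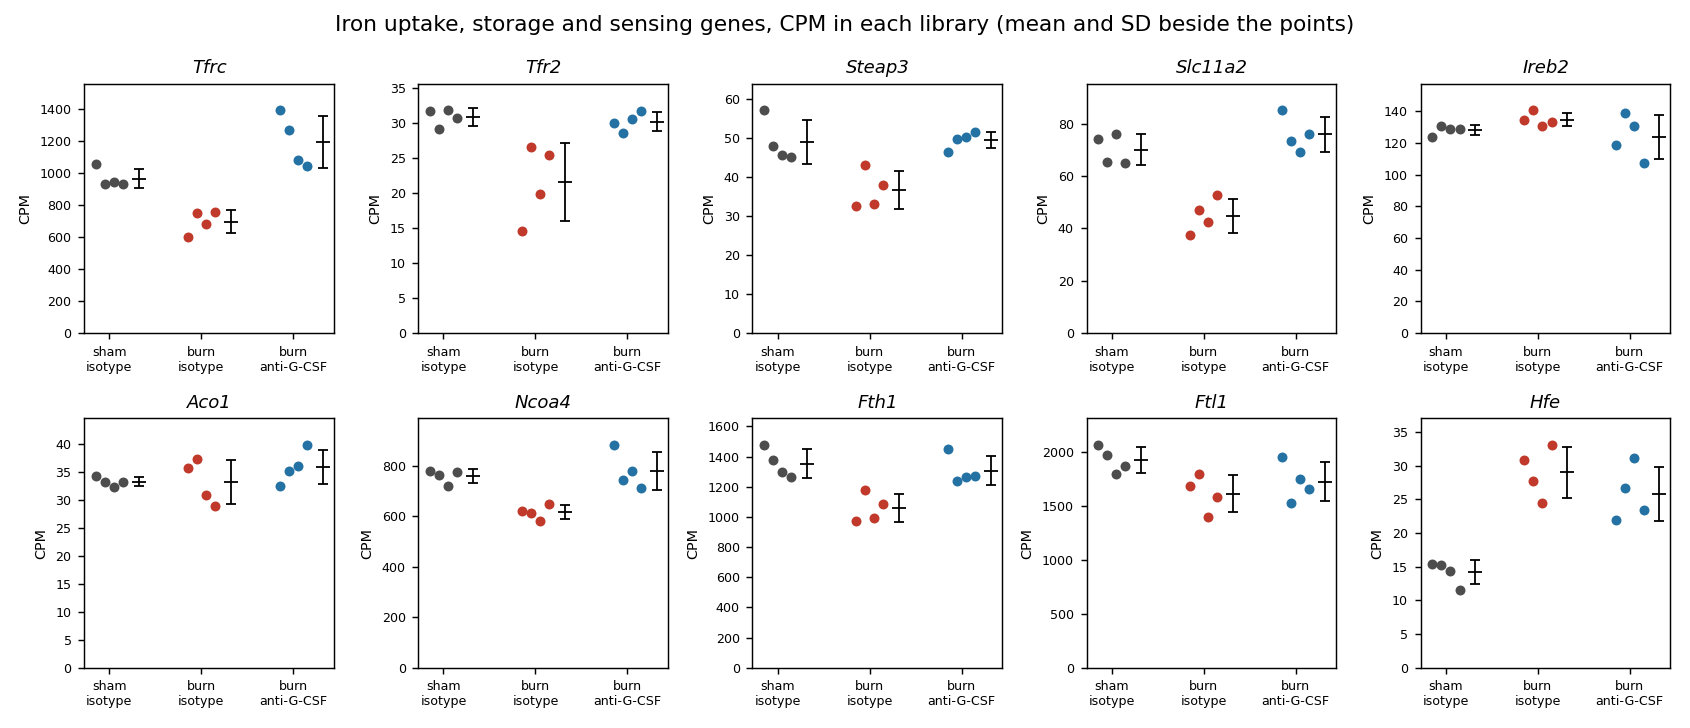
CPM of the 10 genes (vertical axes, from 0) in each of 12 libraries by group, with the mean and SD of each group beside its 4 points. Tfrc, Tfr2, Steap3, Slc11a2, Ncoa4 and Fth1 are lowest in the 4 burn isotype libraries, and Hfe is lowest in the 4 sham libraries.

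A GATA motif was looked for in RefSeq promoters (GRCm38.p6, 250 bases before to 50 after each start) because the uptake genes moved together and GATA1 is a main transcription factor of red cell precursors. The letters searched were AGATAA and TGATAA on both strands, and 18.6% of 32851 promoter windows held 1 or more, or 21.0% of 27025 genes in at least 1 of their windows. Of the 10 genes, 9 had an entry, and Steap3 (1 of 4 windows) and Tfr2 (1 of 3) held a match, shown here in capitals within 30 bases.
Steap3, chr1:120271108-120271137, minus strand: gtccggagagtgTTATCTccctccagttat
Tfr2, chr5:137570902-137570931, plus strand: gcctgtcagggcTGATAAggggccctctag
The share of 2 in 9 is near that of all genes. The Steap3 window belongs to a start upstream of the gene as the count table places it, and the Tfr2 window to a start inside it.

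Tfrc, Tfr2, Steap3 and Slc11a2 serve iron uptake in red cell precursors. Each was therefore also set against the mean log2 CPM of the 12 red cell marker genes of the same library. These differences are read between groups only, since gene length is not accounted for. The share of other marrow cells in the levels of Tfrc, Tfr2, Steap3 and Slc11a2 was not tested. A shift on this scale is thus not shown to lie within red cell precursors. All 12 red cell marker genes fell after burn and all 12 rose with anti-G-CSF, with median log2 fold changes of -0.78 and 0.92. Tfrc stood 1.34, 1.32, 1.24 and 1.33 log2 units above the red cell mean in sham replicates 1 to 4. It stood 1.78, 1.55, 1.55 and 1.57 above it after burn, and 1.44, 1.57, 1.52 and 1.46 above it after burn with anti-G-CSF. Every library of both burn groups was above every sham library.

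The group means of Tfrc on this scale differed by 0.31 ± 0.06 log2 units (SE) between burn and sham, and by 0.19 ± 0.04 between anti-G-CSF and sham, each with exact permutation p = 0.0286 (2-sided). With 4 libraries a group no lower value can be had. Adjusted over the 12 tests of this family the p was 0.0571 by that exact test, so neither difference passed. Between anti-G-CSF and burn isotype the difference of Tfrc was -0.12 ± 0.06 (exact p = 0.0857, adjusted 0.147), and it was 0.009 with heme synthesis genes as the reference. For Steap3 the difference was 0.37 ± 0.10 after burn and -0.46 ± 0.16 with anti-G-CSF, and for Tfr2 it was 0.23 ± 0.08 and -0.37 ± 0.14, all 4 with the same exact p of 0.0286 and adjusted p of 0.0571. For Slc11a2 the difference was 0.13 ± 0.07 after burn (exact p = 0.143, adjusted 0.214) and -0.13 ± 0.09 with anti-G-CSF (exact p = 0.171, adjusted 0.229). The genes were not tested against each other. With the median of the marker genes in place of the mean, the 3 differences of Tfrc and those of Steap3 and Tfr2 named here reached an adjusted exact p of 0.049. The log2 ratio of Tfrc to Tfr2 counts, which needs no reference, was 4.97 ± 0.08 (SD, n = 4 libraries) in sham, 5.04 ± 0.24 with burn and 5.30 ± 0.24 with burn and anti-G-CSF. None of its 3 differences passed the exact permutation test (lowest p = 0.0571, adjusted 0.171 over 9 tests).

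**Figure D3:**
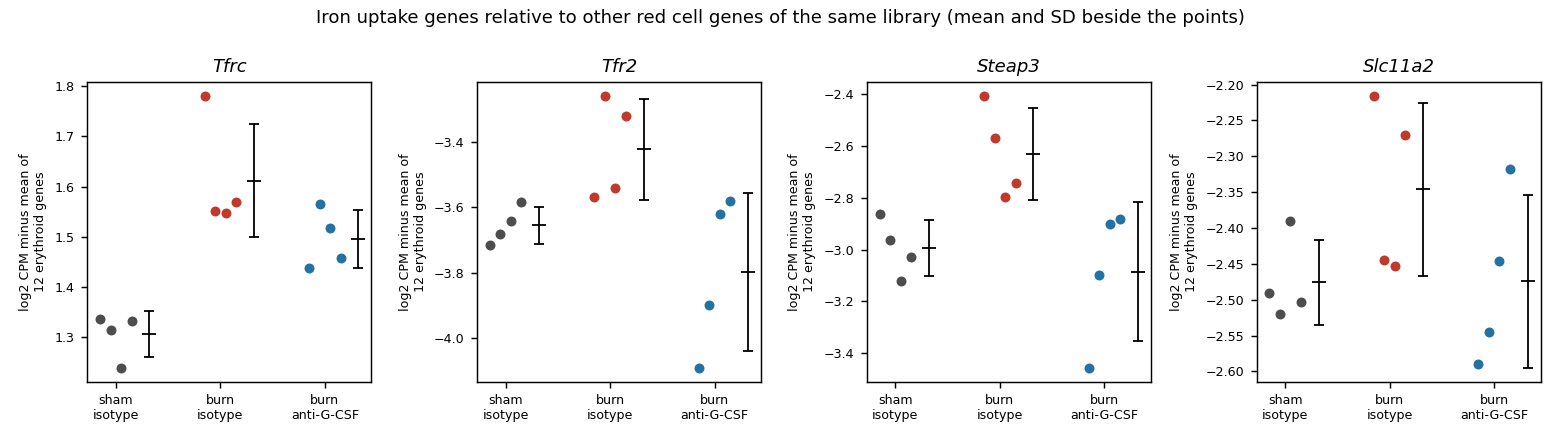
Log2 CPM of Tfrc, Tfr2, Steap3 and Slc11a2 minus the mean log2 CPM of 12 red cell genes of the same library (vertical axes), by group, with mean and SD beside the 4 points. Tfrc, Tfr2 and Steap3 are higher in all 4 burn isotype libraries than in all 4 sham libraries, and Slc11a2 overlaps between groups.

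The ferritin genes were the most abundant of the 10, and the log2 fold changes of storage genes were smaller than those of uptake genes in both comparisons with burn isotype. Fth1 encodes the ferritin heavy chain, which oxidises iron as it enters the shell (Entrez gene 14319, chromosome 19, 9982646 to 9985111, plus strand). Its level was 1476.5, 1376.5, 1295.7 and 1262.7 CPM in sham. It was 975.1, 1177.9, 993.6 and 1088.2 CPM after burn, and 1449.2, 1239.9, 1262.9 and 1272.8 CPM after burn with anti-G-CSF. No burn isotype library reached the lowest library of either other group. On the log2 scale Fth1 changed by -0.35 ± 0.09 after burn (adjusted p = 0.00743) and 0.30 ± 0.09 with anti-G-CSF (adjusted p = 0.0138), the latter at adjusted p = 0.0505 without replicate 5. Between anti-G-CSF and sham it was -0.05 ± 0.09 (adjusted p = 0.789).

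Ftl1 encodes the light chain, which helps the iron core form (Entrez gene 14325, chromosome 7, 45457944 to 45459886, minus strand). Its level was 2063.0, 1972.6, 1795.8 and 1868.3 CPM in sham. It was 1682.7, 1797.0, 1395.8 and 1582.8 CPM after burn, and 1955.3, 1531.0, 1753.3 and 1657.7 CPM after burn with anti-G-CSF. All 3 groups overlapped, the sham and burn groups through replicates 3 and 6 only. Ftl1 had a log2 fold change of -0.25 ± 0.10 after burn (adjusted p = 0.076), 0.09 ± 0.10 with anti-G-CSF (adjusted p = 0.477) and -0.16 ± 0.10 between anti-G-CSF and sham (adjusted p = 0.339). The value after burn passed without replicate 6 (adjusted p = 0.0402), with the DESeq2 Wald test (adjusted p = 0.0335), with the 20 most abundant genes left out (adjusted p = 0.0365) and with scaling by total counts (adjusted p = 0.00274). Both ferritin genes have near-identical pseudogenes, so counts of either may include or have lost reads shared with these.

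The balance of the ferritin chains does not depend on library scaling. The log2 ratio of Fth1 to Ftl1 counts was -0.51 ± 0.04 (SD, n = 4 libraries) in sham, -0.61 ± 0.13 with burn and -0.40 ± 0.07 with burn and anti-G-CSF. It was higher by 0.21 ± 0.07 (SE) with anti-G-CSF than after burn with isotype. Every anti-G-CSF library (-0.47 to -0.30) lay above every burn isotype library (-0.79 to -0.49). The exact permutation p was 0.0286, the lowest that 4 against 4 libraries can give. Adjusted over 9 tests of such ratios the p was 0.171, so this difference did not pass. It could have passed only if most of the 9 tests had reached that lowest p. The difference was -0.10 ± 0.07 between burn and sham (exact p = 0.2, adjusted 0.3) and 0.11 ± 0.04 between anti-G-CSF and sham (exact p = 0.0571, adjusted 0.171).

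Ncoa4 encodes the receptor that delivers ferritin to the lysosome, which frees iron for heme in red cell precursors (Entrez gene 27057, chromosome 14, 32165789 to 32179855, plus strand). Its level was 781.5, 765.6, 722.0 and 775.4 CPM in sham. It was 622.3, 613.0, 580.5 and 647.8 CPM after burn, and 882.6, 743.5, 779.4 and 712.0 CPM after burn with anti-G-CSF. The burn isotype libraries were closely grouped below all the others. For Ncoa4 the log2 fold change was -0.31 ± 0.08 after burn (adjusted p = 0.00985), 0.34 ± 0.08 with anti-G-CSF (adjusted p = 0.00315) and 0.03 ± 0.08 between anti-G-CSF and sham (adjusted p = 0.851).

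The iron sensors did not pass the test in any comparison. Ireb2 encodes IRP2, which is degraded when iron is ample (Entrez gene 64602, chromosome 9, 54863755 to 54912534, plus strand). Its level was 123.8, 130.6, 128.8 and 129.0 CPM in sham. It was 134.7, 140.5, 130.5 and 133.0 CPM after burn, and 118.6, 138.6, 130.4 and 107.3 CPM after burn with anti-G-CSF. The groups overlapped, by the closest of margins between sham and burn, and replicates 9 and 12 were the lowest of all. Ireb2 had a log2 fold change of 0.07 ± 0.08 after burn (adjusted p = 0.565), -0.12 ± 0.08 with anti-G-CSF (adjusted p = 0.222) and -0.05 ± 0.08 between anti-G-CSF and sham (adjusted p = 0.754). The sign of the second value turned to 0.01 ± 0.08 when replicates 9 and 12, highest in brain marker genes, were left out.

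Aco1 encodes IRP1, which serves as cytosolic aconitase when it carries an iron-sulfur cluster (Entrez gene 11428, chromosome 4, 40143265 to 40199009, plus strand). Its level was 34.33, 33.26, 32.38 and 33.33 CPM in sham. It was 35.69, 37.45, 30.91 and 28.98 CPM after burn, and 32.52, 35.18, 36.10 and 39.87 CPM after burn with anti-G-CSF. The sham libraries lay inside the range of the burn isotype libraries. For Aco1 the log2 fold change was 0.00 ± 0.09 after burn (adjusted p = 0.983), 0.11 ± 0.09 with anti-G-CSF (adjusted p = 0.37) and 0.11 ± 0.09 between anti-G-CSF and sham (adjusted p = 0.527). The log2 ratio of Ireb2 to Aco1 counts was 1.94 ± 0.06 (SD, n = 4 libraries) in sham, 2.02 ± 0.14 with burn and 1.78 ± 0.24 with burn and anti-G-CSF, and none of the 3 differences passed the exact permutation test (lowest p = 0.143, adjusted 0.3).

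Hfe encodes a protein related to class I histocompatibility molecules that binds transferrin receptors and takes part in the control of hepcidin in liver (Entrez gene 15216, chromosome 13, 23703841 to 23710811, minus strand). Its level was 15.46, 15.23, 14.42 and 11.62 CPM in sham. It was 30.85, 27.70, 24.40 and 33.06 CPM after burn, and 21.88, 26.75, 31.11 and 23.49 CPM after burn with anti-G-CSF. All 8 libraries of burned mice were above all sham libraries, and the burn groups overlapped. The log2 fold change was 1.03 ± 0.13 after burn (adjusted p = 3.77e-05) and 0.86 ± 0.13 between anti-G-CSF and sham (adjusted p = 0.00392). Between the burn groups it was -0.17 ± 0.13 (adjusted p = 0.326). Hfe was higher than in sham in both burn groups under each alternative tried, for anti-G-CSF at 1.04 ± 0.17 (adjusted p = 0.0111) with the brain genes as a covariate and 1.03 ± 0.14 (adjusted p = 0.00403) without replicates 9 and 12. Neutrophil markers had 14 of 14 genes higher after burn and 13 of 14 lower between anti-G-CSF and sham. Monocyte markers had 8 of 8 higher after burn and, between anti-G-CSF and sham, 1 higher, 1 lower and 6 not called. The 1 higher was Vcan, with log2 fold changes of 2.55 ± 0.11 after burn and 1.67 ± 0.11 between anti-G-CSF and sham. Unlike Hfe, Vcan was lower with anti-G-CSF than after burn with isotype, by -0.88 ± 0.10 (adjusted p = 4.63e-06, edgeR). The part of neutrophils and monocytes in the level of Hfe was not tested.

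Among genes of mitochondrial iron import and iron-sulfur cluster assembly, 9 of 18 were lower after burn, 0 were higher and the median log2 fold change was -0.42. With anti-G-CSF against burn isotype 11 of 18 were higher and 0 lower, with a median of 0.37, and against sham 0 of 18 differed, with a median of 0.00. Among all genes the shares were 11.1% higher and 9.92% lower after burn, 17.7% and 16.9% with anti-G-CSF, and 7.09% and 3.91% against sham. The same shares stand beside the counts of the other iron lists below. Isca1, an assembly factor for clusters of mitochondrial enzymes, went from 521.4 ± 13.2 CPM (SD, n = 4) in sham to 269.2 ± 38.3 after burn and 576.0 ± 122 with anti-G-CSF. Its log2 fold change was -0.95 ± 0.13 after burn (adjusted p = 5.96e-05) and 1.10 ± 0.13 with anti-G-CSF (adjusted p = 4.59e-06). Bola3, which helps pass clusters on to mitochondrial proteins, changed by -0.78 ± 0.11 and 0.71 ± 0.11 on the log2 scale (adjusted p = 8.34e-05 and 7.4e-05). Abcb10, a mitochondrial transporter that stabilises the iron importer mitoferrin and also stands on the heme list, changed by -0.67 ± 0.10 and 0.75 ± 0.10 (adjusted p = 0.000142 and 1.64e-05).

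Other genes of iron transport, storage and regulation were mixed. After burn 7 of 25 tested were higher and 2 lower, and the median log2 fold change was 0.12. With anti-G-CSF 3 were higher and 7 lower (median 0.02), and against sham 1 was higher and 3 lower (median -0.07). The 2 lower after burn, the 3 higher with anti-G-CSF and the 1 higher against sham were not above the shares of all genes. Those shares were 9.92%, 17.7% and 7.09%. Lcn2, which binds bacterial iron carriers, went from 2688.4 ± 168 CPM in sham to 5402.3 ± 752 after burn and 1711.5 ± 286 with anti-G-CSF, and Lcn2 and lactoferrin (Ltf) are neutrophil granule genes that also stand on the neutrophil list. Fbxl5, the iron-sensing F-box protein that sends IRP2 for degradation, went from 143.3 ± 13.8 CPM in sham to 229.8 ± 14.6 after burn and 103.9 ± 10.5 with anti-G-CSF. The log2 fold change of Fbxl5 was 0.68 ± 0.09 after burn (adjusted p = 3.65e-05), -1.14 ± 0.09 with anti-G-CSF (adjusted p = 4.89e-08) and -0.46 ± 0.09 between anti-G-CSF and sham (adjusted p = 0.00731). Fbxl5 thus moved with the neutrophil markers, whose part in this was not tested, while its target Ireb2 did not pass at the level of the message.

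Of 15 genes of hepcidin and its control, 12 were tested, and hepcidin itself (Hamp, Hamp2) and Gdf15 did not pass the expression filter. After burn 3 were higher and 0 lower (median log2 fold change 0.30), with anti-G-CSF 2 were higher and 3 lower (median -0.01), and against sham 1 was higher (median 0.21). The 2 of 12 higher with anti-G-CSF and the 1 of 12 against sham were near the shares of all genes (17.7% and 7.09%). Id1, a target of BMP signalling, rose by 0.63 ± 0.16 after burn (adjusted p = 0.00864) and changed by -1.02 ± 0.16 with anti-G-CSF (adjusted p = 0.000114). Bmpr1a, a BMP receptor, did likewise with 0.58 ± 0.15 (adjusted p = 0.0093) and -0.59 ± 0.15 (adjusted p = 0.00569). Erythroferrone (listed as Fam132b) is the hormone by which red cell precursors lower hepcidin. It was at 2.30 ± 0.912 CPM in sham, 4.93 ± 2.14 after burn and 3.63 ± 0.932 with anti-G-CSF. It rose by 1.10 ± 0.34 after burn (adjusted p = 0.0263). The anti-G-CSF group did not pass against burn isotype (-0.445 ± 0.328, adjusted p = 0.31) or against sham (0.655 ± 0.340, adjusted p = 0.243).

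The 5 other genes fixed as carriers of an iron-responsive element did not move as a group, with 1 higher and 1 lower after burn, 1 higher and 1 lower with anti-G-CSF, and 1 lower against sham. Alas2, which starts heme synthesis in red cells and is also on the heme list, went from 3085.7 ± 117 CPM in sham to 1360.5 ± 240 after burn and 3563.8 ± 905 with anti-G-CSF. Its log2 fold change was -1.18 ± 0.15 (adjusted p = 5.3e-05) and 1.39 ± 0.15 (adjusted p = 3.3e-06), more than that of any of the 10 genes in the same direction. Cdc14a, a phosphatase, changed by 0.34 ± 0.08 after burn (adjusted p = 0.00356), -0.75 ± 0.08 with anti-G-CSF (adjusted p = 1.02e-06) and -0.41 ± 0.08 against sham (adjusted p = 0.00742). The iron exporter ferroportin (Slc40a1), which is on this list and on that of iron transport, was at 293.3 ± 6.35, 267.7 ± 35.3 and 250.5 ± 31.4 CPM in sham, burn and burn with anti-G-CSF and passed in none of the comparisons, by -0.13 ± 0.10 after burn (adjusted p = 0.393).

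The genes whose log2 CPM followed Tfrc most closely over the 12 libraries, out of 9811 compared, were Dnaja4 (Pearson r = 0.983), Rhag (0.982) and Rsad2 (0.980). Dnaja4 encodes a co-chaperone, Rhag a red cell membrane protein on the marker list, and Rsad2 an interferon-induced antiviral protein. For Ftl1 they were Ncaph2 (0.948), a condensin subunit, Dok1 (0.946), an adaptor of tyrosine kinase signalling, and Rps13 (0.942), a ribosomal protein. These values describe 12 libraries that fall into 3 groups and share their scaling.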

How the data were processed

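Whole marrow RNA was measured in 12 libraries. Per the labels' protocols, polyadenylated RNA was selected and libraries were made with a stranded dUTP kit. The authors deposited raw whole-number counts for each gene. Per the submitters' processing notes, TopHat2 and the build mm10 were used. Which program counted the reads, with what strand setting and annotation, is not given in the sources used here, and counts of genes with near-identical copies are uncertain. No other gene of the table overlapped any of the 10 genes. Of 14701 genes with the same end in RefSeq GRCm38.p6, 11377 had a start 1 lower and 300 an equal start, and 1 was added to all starts. The table held 11 blank symbols, which name no gene in the text.

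Genes were filtered with filterByExpr, scaled with TMM and tested 2-sided with the quasi-likelihood test of edgeR 4.0.16 (R 4.3.3, robust fit, all 12 libraries, 9 residual degrees of freedom), with Benjamini-Hochberg adjustment over 15283 genes at 0.05. The SE is the size of the log2 fold change divided by the root of F. For ratios within a library, exact permutation tests (2-sided) ran over 70 assignments. Sequence patterns were searched in GENCODE M21 and RefSeq. Ratios were computed in Python 3.11.15 with pandas 2.3.3, numpy 2.4.6 and scipy 1.17.1, and plots were drawn with matplotlib 3.10.9. Alternatives were DESeq2 size factors, total counts, other filters, the DESeq2 1.42.0 Wald test, limma-voom (limma 3.58.1), the compared groups alone, the 20 most abundant genes left out, the brain genes' mean log2 CPM as a covariate, replicates 9 and 12 left out and each library left out in turn. The edgeR test was tried on simulated counts. It recovered 34, 33 and 32 of 50 genes changed 1.5-fold in the 3 comparisons, and 45, 43 and 45 of 50 changed 2-fold. The simulation changed 200 genes, fewer than the 3207, 5285 and 1681 called in the data. Benjamini-Hochberg adjustment is stricter with fewer changed genes, so these shares do not carry over to the reported tests. A gene that did not pass may still have changed by a small amount.

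The 10 genes, the gene lists and the tests were chosen with earlier results of these data known. Besides these 10, the text names up to 3 genes of each list with the smallest p in a comparison, and the 3 genes of highest correlation with Tfrc and with Ftl1 at an average log2 CPM of at least 3.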

Additional observations from a re-analysis of the deposited data

Results flagged for a closer look

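A single library stood apart from the other 3 of its group in 2 of 30 groups examined (10 genes in 3 groups), by a gap to the nearest library of 0.913 and 0.843 of the group's range, past Dixon's limit for 4 values. Tfrc was at 1053.5 CPM in sham replicate 1, where the other sham libraries lay between 929.4 and 940.1 CPM. Fth1 was at 1449.2 CPM in replicate 9 of burn with anti-G-CSF, where the others lay between 1239.9 and 1272.8 CPM. Chance sets apart about 1 in 20 such groups.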

How the results depend on the processing

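After burn 7 of the 10 genes passed in the reported fit and 7 to 8 with any 1 library left out, and between the burn groups 6 and 5 to 6. Against sham, the anti-G-CSF group had 1 such gene (Hfe), 2 with the DESeq2 Wald test, 2 with total counts, and 1 to 2 with a library left out. Over all genes, 5285 changed between the burn groups, 2969 with the brain genes as a covariate and 3019 without replicates 9 and 12. Between anti-G-CSF and sham 1681 changed, 16 and 35 under those same settings, and 349 to 2271 with a library left out. The cause was not tested. Total counts moved the median log2 fold change of all genes to -0.10, 0.26 and 0.08 in the 3 comparisons, with 1276 higher and 2846 lower, 5762 and 1673, and 1294 and 376.

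Against the red cell genes, the heme genes as reference turned Tfrc between the burn groups to 0.009. The median as reference brought past 0.05 the differences of Tfrc (0.35 after burn, -0.17 between the burn groups, 0.18 for anti-G-CSF against sham), Tfr2 (0.28 and -0.43) and Steap3 (0.41 and -0.51), and turned Slc11a2 against sham to -0.0062. With a library left out, anti-G-CSF against sham ran from -0.1579 to 0.0346 for Steap3 and -0.0509 to 0.04 for Slc11a2, and Tfrc to Tfr2 after burn from -0.0298 to 0.151; 3 against 4 libraries cannot pass 0.05.

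Log2 fold changes that changed sign had not passed the test in the reported fit. With the brain covariate these were Aco1 after burn (0.0158), Ireb2 between the burn groups (0.0115), and Tfr2 (0.0284), Ireb2 (0.12) and Fth1 (0.0141) against sham. Without replicates 9 and 12 they were Ireb2 (0.0088) and Hfe (0.007) between the burn groups, and Ireb2 (0.0703) and Ncoa4 (-0.0004) against sham. With total counts they were Ireb2 after burn (-0.0297), Ireb2 (0.0601) and Hfe (0.0133) between the burn groups, and Tfr2 (0.0512), Ireb2 (0.0303) and Fth1 (0.0316) against sham. With DESeq2 size factors and its Wald test they were Aco1 after burn (0.0062 and 0.006) and Steap3 against sham (-0.0054 in both), and with the 20 most abundant genes left out Steap3 (-0.0387) and Ncoa4 (-0.021) against sham. With a library left out, Aco1 after burn ran from -0.0652 to 0.0568, and against sham Tfr2 ran from -0.0533 to 0.0009, Steap3 from -0.0189 to 0.0992, Ireb2 from -0.1045 to 0.0137 and Ncoa4 from -0.0269 to 0.0755. With total counts Aco1 and Ftl1 also passed between the burn groups (adjusted p = 0.0072 and 0.00802, edgeR).

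No paired analysis was possible because the libraries are numbered 1 to 12 with no number shared between groups.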
